A study of Mus musculus with 16 samples.

Results

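The genes described here encode proteins of pre-mRNA splicing: the Snrp proteins of the small nuclear ribonucleoproteins (snRNPs), the Lsm proteins, the Sf3a and Sf3b proteins, the Prpf proteins, the serine- and arginine-rich splicing factors (Srsf) and the heterogeneous nuclear ribonucleoproteins (hnRNPs). They were chosen by gene symbol, as every probe whose symbol begins with one of these stems and that had a detection p under 0.05 on at least 3 arrays. Of 25697 probes on the array, 128 match by symbol and 102 passed, which stand for 59 of the 16593 genes named on the array. Total RNA of gastrocnemius muscle, a calf muscle, from 16 B6C3F1/J mice was measured on Illumina bead arrays, each animal on its own array. Wild-type animals received vehicle (n = 4) or 4b (n = 5), and so did animals carrying the N17182Q transgene (vehicle, n = 4, and 4b, n = 3). N17182Q mice are a model of Huntington's disease in which the mouse prion protein promoter drives an N-terminal fragment of human huntingtin with an expanded polyglutamine stretch, beside the animal's own intact huntingtin genes. Compound 4b is an inhibitor of histone deacetylases. The labels state neither the dose nor the length of treatment nor the animals' age, and replicate numbers follow the order of deposit only.

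Introns are removed from pre-mRNA by the spliceosome, which is assembled anew on each intron from snRNPs and many further proteins. Sm proteins form a ring on most of the spliceosomal RNAs and a ring of Lsm proteins holds the U6 RNA, while the Sf3a and Sf3b complexes of the U2 snRNP bind at the branch point and the Prpf proteins help to build and remodel the catalytic core. SR proteins mostly favour the use of nearby splice sites and hnRNPs often oppose it, so the balance between them shapes alternative splicing, which in skeletal muscle sets the isoforms of many contractile and calcium-handling proteins. The arrays measured the transcripts of these factors and not the splicing of their targets.

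Of the 26 matching probes that did not pass, 24 were detected on no array, the Sf3b4 probe ILMN_3127739 on 1 array and the probe of Sf3b1 on 2. They leave 12 genes without a member: Hnrnpa3, Hnrnpd, Hnrnpr, Hnrnpu, Lsm1, Lsm11, Prpf31, Prpf4b, Sf3b1, Snrpb2, Snrpe and Srsf12. Just inside the threshold, 1 probe each of Prpf38a, Sf3b4 and Hnrnph2 was detected on exactly 3 arrays. Of the members, 84 were detected on all 16 arrays, 12 on 9 to 15 and 6 on 3 to 8. The hnRNPs gave 29 probes for 14 genes, the Prpf proteins 20 for 9, the Lsm proteins 17 for 11, the SR proteins 15 for 8, the Snrp proteins 13 for 9 and the Sf3a and Sf3b proteins 8 for 8.

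Between 42.7% and 50.3% of all probes were detected per array, and the correlation of any 2 arrays over the normalized values lay between 0.899 and 0.984. Skeletal muscle fibre markers were present throughout: 12 of 13 listed genes were tested and all 12 were detected on every array. Their mean level relative to the average array ran from -0.314 to 0.0208 in transgenic and from -0.00228 to 0.159 in wild-type muscle (exact permutation test, two-sided, p = 0.000262, adjusted p = 0.000917 over 7 lists). For fibroblast markers, of which 7 of 8 were tested, the range was -1.68 to -0.252 in transgenic and -0.236 to 2.33 in wild-type arrays (exact permutation p = 8.74e-05, the smallest that 11440 divisions can give, adjusted p = 0.000612). Lymphocyte markers, 15 of 20 tested and 2 detected on every array, ran from -1.16 to 2.96 in transgenic and from -1.11 to 1.97 in wild-type arrays (exact permutation p = 0.75). That lymphocyte level was above the average array in 6 animals, namely wild-type vehicle 4, wild-type 4b 1 and 3, transgenic vehicle 4 and transgenic 4b 1 and 2. Adipocyte markers, 6 of 9 tested, were above the average array in the same animals except transgenic 4b 2, and in no other. Their level was 2.19 in wild-type vehicle 4 and 1.96 and 1.28 in wild-type 4b 1 and 3. In transgenic muscle it was 0.474 in vehicle 4, 0.724 in 4b 1 and -1.15 in 4b 2. The counts of called members in each comparison were also made without the 6 arrays of higher lymphocyte level, a choice made after the levels were seen. Leaving them out does not separate the 2 cell types, and the part of other cells in the results was not tested beyond this. In whole muscle, fewer cells of a type and less RNA per cell cannot be told apart. Xist, a transcript of female cells, varied between animals. It was 8.5, 5.0, 8.7 and 4.8 with vehicle and 8.4, 8.5, 8.1, 4.8 and 5.1 with 4b in wild-type muscle. In transgenic muscle it was 4.7, 4.6, 4.8 and 8.2 with vehicle and 8.5, 4.6 and 8.1 with 4b. With its level as a covariate, 5 members were called under vehicle, beside 3.74% of all probes. Under 4b the number was 31, beside 27.5%, and across both treatments 44, beside 30.9%.

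Across both treatments, 45 of the 102 probes differed between transgenic and wild-type muscle, 27 of them higher and 18 lower in transgenic animals. Hnrnpa1, Srsf5, Hnrnpl and Hnrnpf rose by 3.08, 2.5, 2.39 and 2.17 times, and transcripts of Snrpn, Lsm12, Srsf3, Hnrnpc and Hnrnph1 fell. The difference is the mean of the genotype difference under vehicle and under 4b on the log2 scale, given with its standard error (SE), and a probe was called at an adjusted p under 0.05 (limma fit over all 16 arrays, Benjamini-Hochberg over 13706 probes). Of all 13706 probes tested, 32.2% were called in this comparison, 17.9% higher and 14.3% lower, against 26.5% and 17.6% of the splicing factor probes. Among probes detected on all 16 arrays, 21% of all were called higher against 23 of 84 members, and 16.6% lower against 16 of 84. At gene level 21 genes had a probe that rose, 11 had a probe that fell, 1 of these, Hnrnpc, had both, and 28 had none called. The median difference of the members was 0.11 against 0.0111 over all probes.

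Quantile normalization gives every array the same distribution, so a shift of all transcripts together would not be seen. As an alternative, arrays were scaled only to a common median, taken over all 25697 probes, of which 42.7% to 50.3% were detected per array. The median of all tested probes in this comparison then moved to 0.116 and the members' median to 0.239. The split of calls moved to 39 higher and 9 lower, which is 81.2% higher in place of 60%. Median scaling gives every array the same median, so a shift of all transcripts together would not be seen there either. Whether one occurred was not tested. Over all probes the higher share of the calls moved too, from 55.6% to 74.6%. By family, median scaling called 13 hnRNP probes higher and 3 lower, 6 and 2 of the SR proteins, 2 and 2 of the Snrp, 4 and 2 of the Lsm, 4 and 0 of the Sf3a and Sf3b and 10 and 0 of the Prpf probes. Every one of the 45 called probes kept its sign under that scaling, in the authors' deposited log2 values and without the 6 arrays of higher lymphocyte level. The probes had been called on these same arrays, so the kept signs are no independent support. Without those 6 arrays 12 members were called, beside 10.7% of all probes. These were both Lsm12 probes named below, both Snrpn and both Hnrnpa1 probes, Srsf5 ILMN_3148662, Hnrnpl, Hnrnpf, Hnrnpul1 ILMN_1239335, Sf3b2 and Hnrnpc ILMN_2511051. No Prpf probe is among them.

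**Figure D1:**
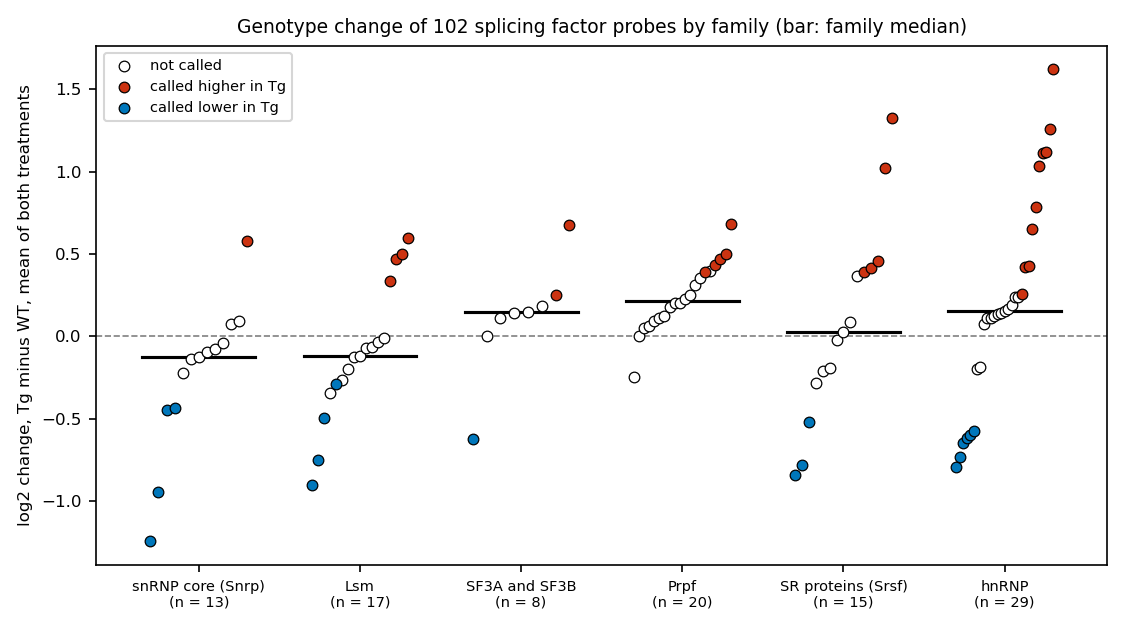
Difference between transgenic and wild-type muscle, averaged over both treatments (log2, vertical axis), for each of the 102 splicing factor probes by family, with filled points for called probes and a bar at each family median. Both directions of change occur in every family except the Prpf proteins, where 5 probes were called higher and none lower (under median scaling the Sf3a and Sf3b proteins also had none lower), and the widest range, from -0.79 to 1.62, is that of the hnRNPs.

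Among the hnRNPs, which coat nascent transcripts and often silence splice sites, 10 of 29 probes rose, 6 fell and 13 were not called (median 0.154). The first to be described is Hnrnpl, which binds CA-rich RNA. Hnrnpl (probe ILMN_2627690) measured 8.88, 8.88, 9.01 and 9.39 on the wild-type vehicle arrays, 9.11, 9.03, 9.55, 8.98 and 9.01 on wild-type 4b, 10.46, 10.27, 10.36 and 10.41 on transgenic vehicle and 10.42, 10.51 and 10.03 on transgenic 4b. All 7 transgenic arrays lay above all 9 wild-type arrays, by 1.26 ± 0.12 (adjusted p = 1.43e-05) on average. Over all members, 4 probes lay higher in every transgenic than in any wild-type animal, beside 2.76% of all probes, and 3 lay lower, beside 2.72%.

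Hnrnpa1, a well studied silencer of exon use, had the highest rise of all members. The values of Hnrnpa1 probe ILMN_3096701 were 8.89, 9.14, 8.57 and 9.13 with vehicle and 8.93, 8.97, 9.02, 9.17 and 8.88 with 4b in wild-type muscle, against 10.74, 9.47, 10.28 and 10.10 with vehicle and 11.39, 11.13 and 10.53 with 4b in transgenic muscle. The transgenic values again stood clear of the wild-type ones, and the 3 transgenic 4b animals included the highest. For Hnrnpa1 (ILMN_3024068), wild-type animals gave 6.66, 7.04, 6.43 and 5.93 under vehicle and 5.72, 6.30, 6.56, 6.23 and 6.41 under 4b, and transgenic animals gave 7.30, 6.96, 7.14 and 6.41 and then 8.49, 7.96 and 7.64. On this second probe the vehicle groups overlapped and only the 4b groups were separate. The averaged differences were 1.62 ± 0.17 (adjusted p = 2.81e-05) and 1.11 ± 0.19 (adjusted p = 0.000592). Hnrnpf, which binds runs of guanines, showed a similar order. Hnrnpf (probe ILMN_2829171) measured 7.54, 7.54, 7.04 and 7.42 on the wild-type vehicle arrays, 7.71, 6.90, 7.28, 7.52 and 7.52 on wild-type 4b, 8.92, 7.99, 7.91 and 7.99 on transgenic vehicle and 9.23, 8.90 and 8.29 on transgenic 4b. Transgenic vehicle animal 1 stood near the 4b-treated animals and the other 3 just above the wild-type range, and the averaged difference was 1.12 ± 0.18 (adjusted p = 0.000434).

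Hnrnph1, a close relative of Hnrnpf that also binds guanine runs, moved the other way on all 5 of its probes, by -0.73 to -0.58 (adjusted p from 0.00452 to 0.0159). The values of Hnrnph1 probe ILMN_2684987 were 7.76, 7.55, 7.64 and 7.07 with vehicle and 7.51, 7.36, 7.40, 7.29 and 7.49 with 4b in wild-type muscle, against 6.35, 6.79, 7.21 and 7.23 with vehicle and 6.92, 6.50 and 6.94 with 4b in transgenic muscle. Transgenic vehicle animals 3 and 4 lay within the wild-type range, so the groups overlapped. Hnrnpc, which binds uridine tracts, fell on probe ILMN_2511051, with a difference of -0.79 ± 0.14 (adjusted p = 0.000887) and rose on probe ILMN_1235470 by 0.26 ± 0.09 (adjusted p = 0.0351). Both probes are annotated to the same transcript record, and which stretch of it each one reads was not analysed here. Hnrnpul1, an hnRNP U relative, rose on 2 of 4 probes by 1.03 and 0.78, and its other 2 probes, annotated to another record, each stood at 0.24 without a call. Single probes of Hnrnpk, Hnrnpll and Hnrnpdl also rose, by 0.65, 0.43 and 0.42.

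**Figure D2:**
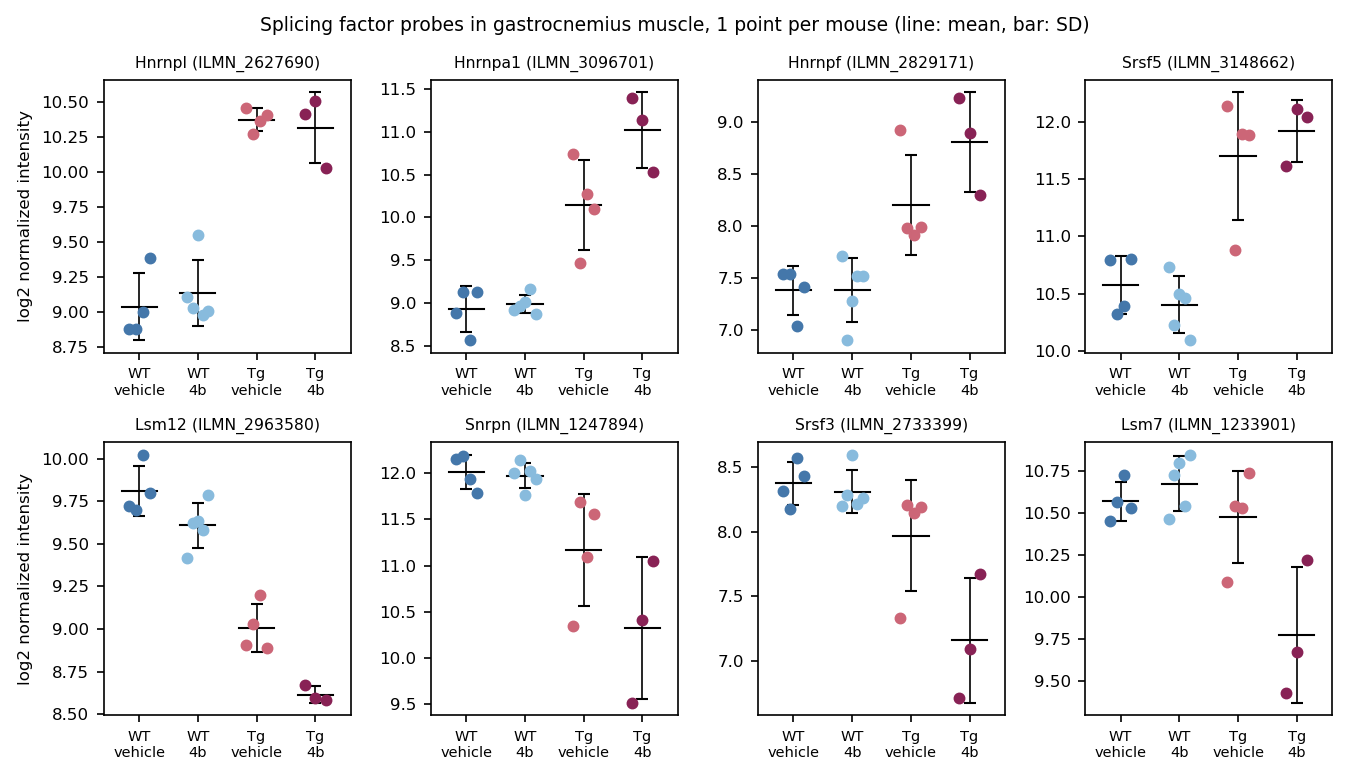
Normalized log2 intensity (vertical axes) of 8 splicing factor probes in each animal of the 4 groups, with the group mean as a line and the SD as a bar. Hnrnpl, Hnrnpa1, Hnrnpf, Srsf5, Lsm12 and Snrpn separate transgenic from wild-type animals without overlap, whereas Srsf3 and Lsm7 lie low mainly in the transgenic 4b group and in transgenic vehicle animal 1.

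SR proteins, which recruit the splicing machinery to exonic enhancers, gave 5 probes that rose and 3 that fell of 15 (median 0.0268). Srsf5 held the strongest rise. Srsf5 (probe ILMN_3148662) measured 10.79, 10.32, 10.39 and 10.80 on the wild-type vehicle arrays, 10.73, 10.23, 10.50, 10.47 and 10.09 on wild-type 4b, 12.14, 10.89, 11.90 and 11.88 on transgenic vehicle and 11.61, 12.12 and 12.05 on transgenic 4b. Even the lowest transgenic value, 10.89 in vehicle animal 2, was above the highest wild-type value, and the averaged difference was 1.32 ± 0.17 (adjusted p = 0.000111). Its second probe, ILMN_2772274, rose by 1.02 ± 0.19 (adjusted p = 0.00114) with overlapping groups. Srsf4 rose by 0.46, and Srsf10, which acts as a repressor in its dephosphorylated form, rose on 2 probes by 0.39 and 0.42 while its other probe stood at -0.19 without a call.

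Srsf3, the shortest SR protein and an adaptor for mRNA export, fell on both probes, with differences of -0.84 ± 0.20 (adjusted p = 0.00469) and -0.78 ± 0.16 (adjusted p = 0.00186). For Srsf3 (ILMN_2733399), wild-type animals gave 8.32, 8.18, 8.57 and 8.44 under vehicle and 8.20, 8.29, 8.60, 8.22 and 8.26 under 4b, and transgenic animals gave 7.33, 8.21, 8.15 and 8.19 and then 6.71, 7.09 and 7.67. The low values were those of the 3 transgenic 4b animals and transgenic vehicle animal 1, and the other 3 transgenic vehicle animals, at 8.15 to 8.21, lay at the lower edge of the wild-type range. Srsf9 fell by 0.52. No probe of Srsf1, Srsf2 or Srsf6 was called.

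The stretch shown runs from 250 bases before to 50 bases after the annotated start. It is given for the 3 genes of largest rise among those with an entry, Hnrnpa1, Srsf5 and Hnrnpl, and for Srsf3, which fell. Members that moved together raise the question of what letters their promoters share. Srsf3 is an example only and was not the gene of largest fall. The Snrpn probes differed by -1.24 and -0.95, those of Srsf3 by -0.84 and -0.78. The sequences are RefSeq's on build GRCm38.p6, 5′ to 3′ in the direction of the gene. Capitals mark matches on either strand to the letters TATAAA of the TATA box, the letters CCAAT of the box named after them, the letters GGGCGG of the GC box, the letters CCGGAAG of an ETS core or the letters TGACGTCA of a cyclic AMP response element.
Hnrnpl, chr7:28810640-28810939, plus strand: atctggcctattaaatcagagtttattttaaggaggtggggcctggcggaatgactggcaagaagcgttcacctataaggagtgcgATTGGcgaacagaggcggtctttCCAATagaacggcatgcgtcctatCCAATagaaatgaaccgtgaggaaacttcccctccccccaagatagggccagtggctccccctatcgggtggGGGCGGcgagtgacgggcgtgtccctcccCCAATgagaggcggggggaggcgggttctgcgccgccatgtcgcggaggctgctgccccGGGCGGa
Hnrnpa1, chr15:103240147-103240446, plus strand: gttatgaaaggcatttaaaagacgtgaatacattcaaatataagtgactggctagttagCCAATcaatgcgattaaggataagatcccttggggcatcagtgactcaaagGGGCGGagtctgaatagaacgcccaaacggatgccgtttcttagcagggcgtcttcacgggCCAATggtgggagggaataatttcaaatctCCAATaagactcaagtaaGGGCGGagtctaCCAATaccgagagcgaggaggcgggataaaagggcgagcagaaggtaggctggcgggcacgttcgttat
Srsf5, chr12:80945249-80945548, plus strand: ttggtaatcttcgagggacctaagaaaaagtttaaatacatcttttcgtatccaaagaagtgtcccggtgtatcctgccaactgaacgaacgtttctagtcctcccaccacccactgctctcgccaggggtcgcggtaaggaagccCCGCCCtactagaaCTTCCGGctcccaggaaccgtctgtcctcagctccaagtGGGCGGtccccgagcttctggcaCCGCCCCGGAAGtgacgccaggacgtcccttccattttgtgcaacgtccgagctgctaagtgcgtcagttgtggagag
Srsf3, chr17:29032410-29032709, plus strand: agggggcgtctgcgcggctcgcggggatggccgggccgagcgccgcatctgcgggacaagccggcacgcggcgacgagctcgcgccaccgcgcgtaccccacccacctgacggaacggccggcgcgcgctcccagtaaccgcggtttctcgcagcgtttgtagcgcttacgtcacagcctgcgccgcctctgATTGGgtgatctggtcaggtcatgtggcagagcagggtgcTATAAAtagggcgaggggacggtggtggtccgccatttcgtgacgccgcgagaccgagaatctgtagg
Hnrnpl and Hnrnpa1 each hold 4 CCAAT boxes and 2 GC boxes, Srsf5 holds 3 GC boxes and 2 ETS cores of which one overlaps a GC box, and Srsf3 holds a TATA box and a CCAAT box.

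RefSeq's table has promoters for 51 of the 59 member genes, 71 in all. Of these 71, 64.8% hold a GC box against 35.7% of all 32851 promoters, 50.7% a CCAAT box against 37.4%, 26.8% an ETS core against 8.86%, 9.86% a TATA box against 13.6% and 4.23% a cyclic AMP response element against 1.79%. Among the 26 promoters of the 18 genes with a probe called higher and an entry, 38.5% hold an ETS core and none a TATA box. Among the 15 promoters of the 7 genes called lower, 6.67% (1 promoter) hold an ETS core and 13.3% (2 promoters) a TATA box. Several promoters of a gene were counted apart. Of the promoters of genes called higher and lower, 73.1% and 66.7% hold a GC box and 61.5% and 40% a CCAAT box. None of either holds a cyclic AMP response element, and their median CpG counts were 25.5 and 24. The member promoters had a median of 25 CpG dinucleotides against 7 over all promoters. These shares describe the letters only, and no test was made. The Srsf3 stretch shown above, with a TATA box and no GC box, is unlike most promoters of genes called lower. It therefore does not show a contrast between genes that rose and genes that fell.

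Of the Snrp probes, which cover the Sm ring and the proteins particular to U1 and U2, 4 fell and 1 rose of 13 (median -0.124, which turned to 0.044 under median scaling, below the all-probe median of 0.116, with 2 called in each direction). Snrpn encodes SmN, a form of the Sm protein B made mainly in brain and heart from an imprinted locus. The values of Snrpn probe ILMN_1247894 were 12.15, 12.18, 11.94 and 11.78 with vehicle and 12, 12.14, 11.77, 12.03 and 11.94 with 4b in wild-type muscle, against 10.35, 11.69, 11.10 and 11.56 with vehicle and 9.52, 10.41 and 11.05 with 4b in transgenic muscle. All transgenic values lay below all wild-type values, with the lowest in transgenic 4b animal 1. Both probes fell, with differences of -1.24 ± 0.21 (adjusted p = 0.000629) and -0.95 ± 0.19 (adjusted p = 0.00151). Snrpb, the gene of the common form of this protein, fell on 1 of 2 probes, with a difference of -0.45, and Snrpd3, another Sm protein, fell with a difference of -0.43. Snrpa1, a U2 protein, rose by 0.58. Snrpa, Snrpc, Snrpd1, Snrpd2 and Snrpg had no called probe, and their differences ran from -0.22 to 0.09.

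Of 17 Lsm probes 4 were called higher and 4 lower (median -0.12, or 0.0154 under median scaling, where 4 were higher and 2 lower). Lsm12, an Lsm-domain protein that is not part of the ring on U6, fell on 2 of 4 probes. Lsm12 (probe ILMN_2963580) measured 9.73, 9.70, 10.02 and 9.80 on the wild-type vehicle arrays, 9.42, 9.62, 9.63, 9.58 and 9.79 on wild-type 4b, 8.91, 9.03, 9.20 and 8.89 on transgenic vehicle and 8.67, 8.59 and 8.58 on transgenic 4b. Every transgenic animal lay below every wild-type animal, and the 4b-treated ones were the lowest. For Lsm12 (ILMN_2730926), wild-type animals gave 10.68, 10.48, 10.65 and 10.14 under vehicle and 10.33, 10.52, 9.84, 10.06 and 10.12 under 4b, and transgenic animals gave 9.78, 9.61, 9.79 and 9.42 and then 9.57, 9.64 and 9.34. This probe was also free of overlap, and the averaged differences were -0.90 ± 0.09 (adjusted p = 2.13e-05) and -0.75 ± 0.12 (adjusted p = 0.000415). The other Lsm12 probes stood at -0.34 and -0.07 without a call, the latter detected on 7 arrays. Of the ring on U6, Lsm7 fell by 0.50 and Lsm4 fell by 0.29 on the log2 scale, Lsm6 rose by 0.34, and the probes of Lsm2, Lsm3, Lsm5 and Lsm8 were not called. Lsm14b, a paralog of the P-body protein Lsm14a, rose on all 3 probes by 0.47 to 0.60, of which ILMN_2676165 was detected on none of the wild-type vehicle arrays and 1 of 5 wild-type 4b arrays, so that its level there is only a bound. In the same comparison Lsm14a stood at -0.07 and Lsm10 of the U7 snRNP, which matures histone mRNA, at -0.20.

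In the Sf3a and Sf3b complexes, which clamp U2 on the branch point, Sf3b2 and Sf3b5 rose, Sf3b6 fell and the other 5 probes were not called (median 0.145). The values of Sf3b2 probe ILMN_1239645 were 11.45, 11.33, 11.32 and 11.43 with vehicle and 11.66, 11.37, 11.48, 11.30 and 11.21 with 4b in wild-type muscle, against 12.23, 11.75, 12 and 11.63 with vehicle and 12.56, 12.22 and 11.91 with 4b in transgenic muscle. Transgenic vehicle animal 4, at 11.63, lay below the highest wild-type animal, and the averaged difference of Sf3b2 was 0.67 ± 0.12 (adjusted p = 0.000724). Sf3b5 rose by 0.25. Sf3b6, which touches the branch-point adenosine, fell by 0.63 ± 0.21 (adjusted p = 0.034), a call lost in 11 of 30 alternative settings.

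The Prpf proteins stood on one side: 19 of 20 probes were above 0, where 7012 of all 13706 probes were. Of the 20, 5 were called higher and none lower (median 0.213), beside 17.9% and 14.3% of all probes. These 20 probes stand for 9 genes, and probes of a gene share the animals. Prpf6, which bridges the U4/U6 and U5 snRNPs, rose by 0.68 ± 0.16 (adjusted p = 0.00519). For Prpf6 (ILMN_2712957), wild-type animals gave 8.84, 8.85, 9.10 and 9.03 under vehicle and 8.81, 8.54, 8.80, 8.80 and 9.10 under 4b, and transgenic animals gave 9.61, 9.24, 9.50 and 9.20 and then 9.66, 10.46 and 9.09. The highest value, 10.46 in transgenic 4b animal 2, stood well above the rest, and transgenic 4b animal 3, at 9.09, lay within the wild-type range. Prpf38a, needed for activation of the spliceosome, rose on 1 of 3 probes by 0.50, the U1-linked Prpf40b on 1 of 3 by 0.47 and the ubiquitin ligase Prpf19 on 1 of 3 by 0.39. Prpf39, a U1-associated factor, rose by 0.44 ± 0.10 (adjusted p = 0.00433). None of the wild-type vehicle animals had this probe well above background, so the fold there is a bound of at least 1.08-fold higher in transgenic vehicle animals, from group means of normalized log2 values (adjusted p = 0.068). No probe of Prpf3, Prpf8, Prpf18 or Prpf38b was called.

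**Figure D3:**
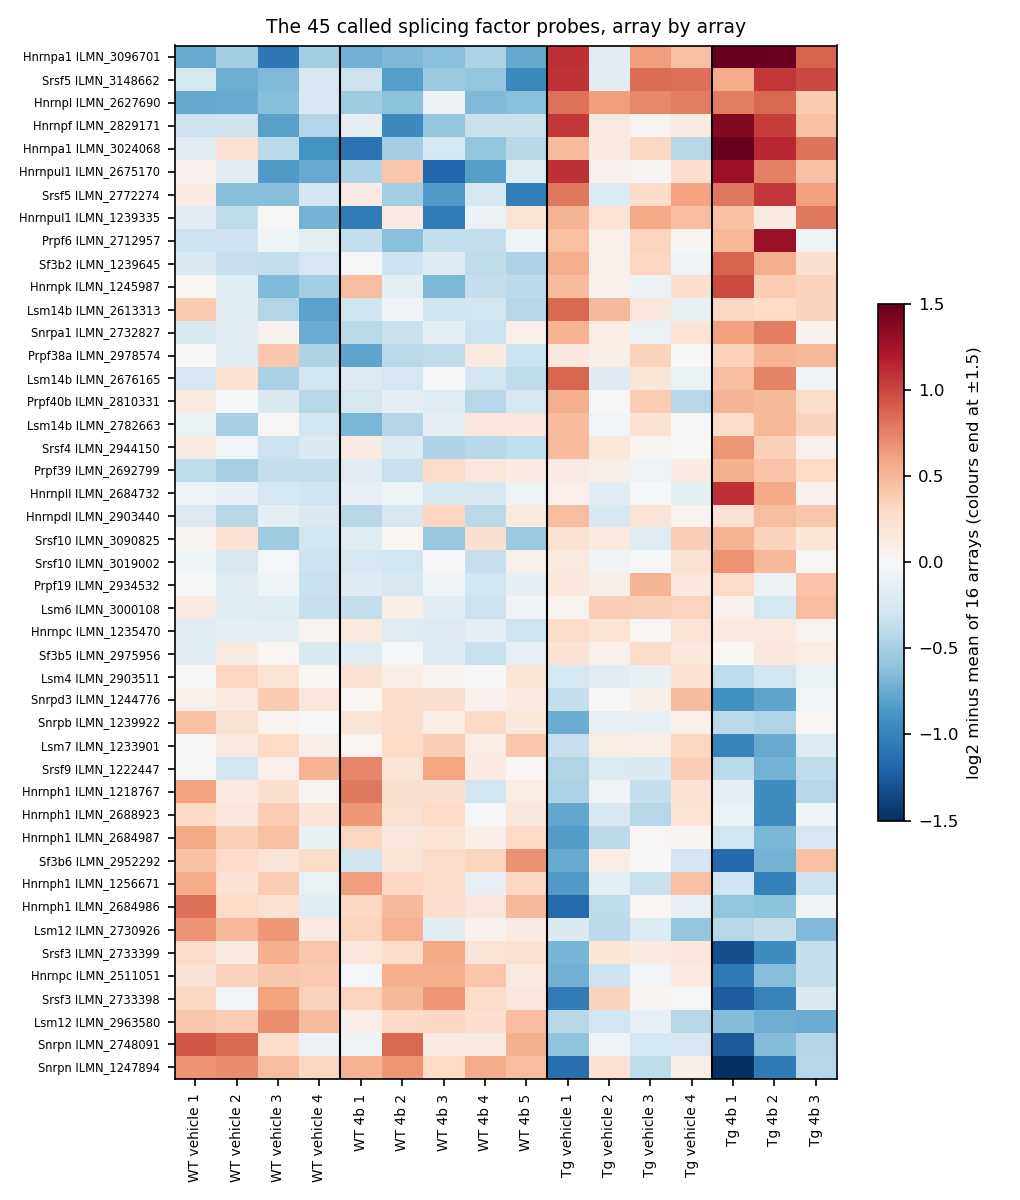
Normalized log2 intensity of the 45 called probes (rows, ordered by averaged genotype difference) on the 16 arrays (columns), each minus its mean over arrays, with colours ending at 1.5 above and below. Transgenic vehicle animal 1 and transgenic 4b animals 1 and 2 carry the deepest colours, whereas transgenic vehicle animals 2 to 4 lie nearer to wild type.

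Under vehicle alone, 5 members differed between the genotypes, 3 higher and 2 lower, beside 5.28% of all probes called, 2.36% higher and 2.92% lower. The rises were Hnrnpl, 1.34 ± 0.16 (adjusted p = 0.000765), Hnrnpa1 ILMN_3096701, 1.22 ± 0.24 (adjusted p = 0.0112), and Srsf5 ILMN_3148662, 1.13 ± 0.24 (adjusted p = 0.016). Both falls were of Lsm12, with differences of -0.81 ± 0.13 (adjusted p = 0.00343) on ILMN_2963580 and -0.84 ± 0.17 (adjusted p = 0.0124) on ILMN_2730926. The Srsf5 call was lost in 6 of 30 alternative settings and the Hnrnpl call in none of 31. When only the arrays of the vehicle groups were fitted, 2 members were called, beside 1.18% of all probes. Without the 6 arrays of higher lymphocyte level 7 were called, 2 higher and 5 lower, beside 5.61% of all probes, and 4 of the 5 calls named here were among them, Srsf5 not.

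Under 4b, 32 members differed between transgenic and wild-type muscle, 18 higher and 14 lower, beside 27.4% of all probes, 15.6% higher and 11.8% lower. The largest rises were those of both Hnrnpa1 probes, 2.02 ± 0.25 and 1.78 ± 0.27, both Srsf5 probes, 1.52 ± 0.25 and 1.32 ± 0.28, Hnrnpf, 1.42 ± 0.26, Hnrnpul1, 1.28 ± 0.35, and Hnrnpl, 1.18 ± 0.17 (adjusted p from 0.000282 to 0.0142). Prpf6 with 0.93 ± 0.23, Sf3b2 with 0.83 ± 0.17 and Hnrnpul1 ILMN_1239335 with 0.82 ± 0.29 came next, the last of these a call lost in 20 of 30 alternative settings. Falls were led by Snrpn, -1.65 ± 0.31 and -1.10 ± 0.27, Srsf3, -1.21 ± 0.28 and -1.16 ± 0.23, Hnrnpc ILMN_2511051, -1.01 ± 0.21, Lsm12 ILMN_2963580, -0.99 ± 0.13, and Lsm7, -0.90 ± 0.19. Srsf9 differed by -0.84 ± 0.22 and 2 Hnrnph1 probes by -0.82 ± 0.26 and -0.76 ± 0.26, calls lost in 10 and 9 of 30 alternative settings. This comparison holds 3 transgenic animals, and without transgenic 4b animal 1 or without animal 2 it had 19 called members each, beside 15.1% of all probes. Without the 6 arrays of higher lymphocyte level, which leaves 1 transgenic 4b animal assumed to vary like the other groups, no member was called, beside 0.0365% of all probes.

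The vehicle and 4b comparisons share no arrays. All 5 members called under vehicle were called under 4b with the same sign, and all 32 called under 4b had that sign under vehicle, 29 of them with a larger difference under 4b. Of all 3760 probes called under 4b, 93.9% had the same sign under vehicle and 93.7% a larger difference under 4b, against 100% and 90.6% of the called members. Over all 102 members 85 kept their sign, or 83.3%, beside 73.1% of all probes. The test of whether a difference was larger under 4b is the interaction, for which no member was called.

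**Figure D4:**
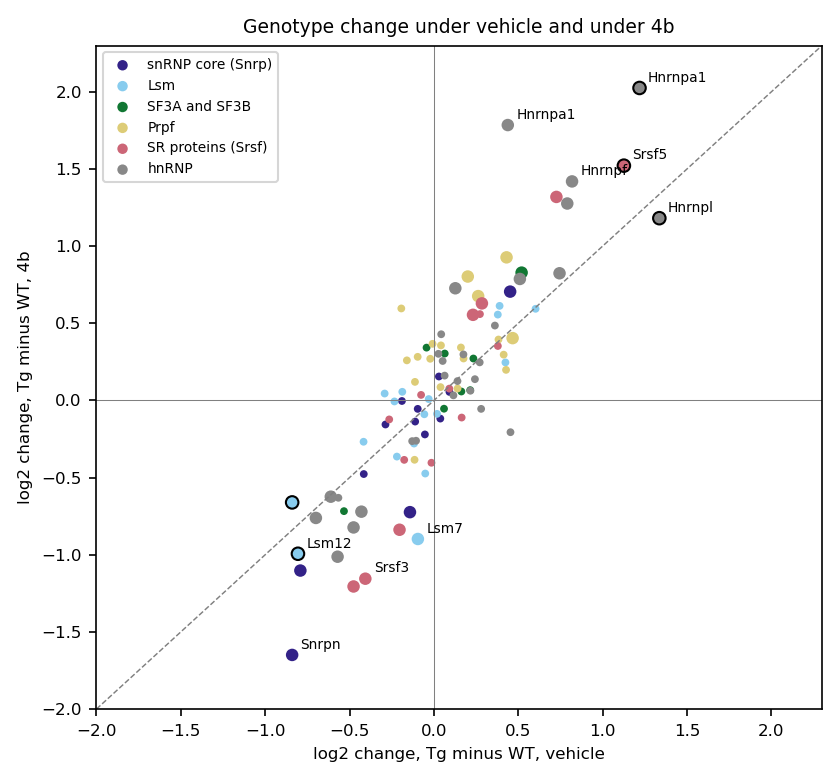
Genotype difference (transgenic minus wild type, log2) under vehicle (horizontal axis) and under 4b (vertical axis) for the 102 probes, coloured by family, with larger points for probes called under 4b and outlined points for those called under vehicle. The 5 outlined points keep their side of 0 on both axes, and 29 of the 32 large points, or 90.6%, lie farther from 0 on the 4b axis, beside 93.7% of all probes called under 4b.

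No member was called for treatment with 4b in either genotype, beside 0% of all probes. In wild-type muscle 2 members had an unadjusted p under 0.05 in the limma fit, beside 2.66% of all probes, and the members' median was -0.0374 (all probes -0.0304). The 3 smallest p-values in each direction were those of Prpf39, 0.41 ± 0.13, Srsf9, 0.26 ± 0.20, and a probe of Srsf2, 0.14 ± 0.15, above 0, and of Prpf8, Prpf18 and Lsm12, -0.36 ± 0.15, -0.24 ± 0.11 and -0.31 ± 0.16, below it, all with an adjusted p of 1. Prpf39 was above every wild-type vehicle value on all 5 wild-type 4b arrays, but as said its vehicle values were not well above background. It was also picked by its small p, so this order is no further support.

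In transgenic muscle 14 members had an unadjusted p under 0.05, beside 14.3% of all probes, and the members' median was -0.0245 (all probes -0.00871). The smallest p-values belonged to Hnrnpa1, 1.08 ± 0.29 (adjusted p = 0.156) and 0.87 ± 0.26 (adjusted p = 0.173), Hnrnpll, 0.63 ± 0.19 (adjusted p = 0.168), Lsm7, -0.70 ± 0.19 (adjusted p = 0.158), Srsf3, -0.81 ± 0.24 (adjusted p = 0.169), and Snrpd3, -0.63 ± 0.21 (adjusted p = 0.217). All 3 transgenic 4b animals lay above every transgenic vehicle animal on Hnrnpa1 ILMN_3024068. The probes named here were picked by p, so the order of their animals is no further support. The share of all probes with such an order is not given here. On Hnrnpa1 ILMN_3096701, Lsm7 and Srsf3, transgenic 4b animals 1 and 2 lay beyond every transgenic vehicle animal, and animal 3 lay nearer to the vehicle group. Hnrnpl, called in both genotype comparisons, stood at -0.06 ± 0.18 in transgenic and 0.10 ± 0.16 in wild-type muscle under 4b. With array weights 17 members were called, beside 16.6% of all probes. Without transgenic 4b animal 3 the number was 6, beside 3.42%, and without transgenic vehicle animal 1 it was 4, beside 2.97%. The median SE of a member was 0.212, so a difference of the median size seen, 0.178, was not detectable with 4 and 3 animals.

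For the interaction, the effect of 4b in transgenic minus that in wild-type muscle, no member was called, beside 0% of all probes. In that fit 5 members had an unadjusted p under 0.05, beside 9.81% of all probes, and 2 members were called with array weights, beside 1.31% of all probes. Hnrnpa1 ILMN_3024068 had the smallest p above 0, 1.35 ± 0.38 (adjusted p = 0.429), and Lsm7 below 0, -0.80 ± 0.26 (adjusted p = 0.444). Hnrnpll, Hnrnpa1 ILMN_3096701, Srsf3 and Snrpd3 followed with 0.60 ± 0.25, 0.81 ± 0.34, -0.75 ± 0.32 and -0.58 ± 0.28. Without the 6 arrays of higher lymphocyte level the Snrpd3 differences turned to 0.0479 for 4b and 0.103 for the interaction.

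Transgenic animals also differed among themselves. Averaged over the 102 members, the absolute distance of an array from the mean of all arrays was 0.378 in transgenic vehicle animal 1, 0.429 in transgenic 4b animal 1 and 0.413 in transgenic 4b animal 2. All others lay between 0.182 and 0.311. This distance was not worked out over all probes, so it is not shown to be particular to the members. The same 3 animals had the lowest muscle fibre scores, -0.314, -0.274 and -0.212, and the lowest fibroblast scores, -1.68, -1.47 and -1.52, and the part of either in the splicing factor values was not tested.

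Probes of one gene allow a check within the arrays. Of the 26 genes with several members, 22 had all probes on one side of 0 in the averaged comparison and 17 had at least 1 called probe. Every probe was called in the same direction for 6 genes, Hnrnpa1, Lsm14b and Srsf5 upward and Hnrnph1, Snrpn and Srsf3 downward. A called probe stood against another of opposite sign in 2 genes, Hnrnpc and Srsf10. Probes of a gene share the animals, so these counts are not independent replicates.

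**Figure D5:**
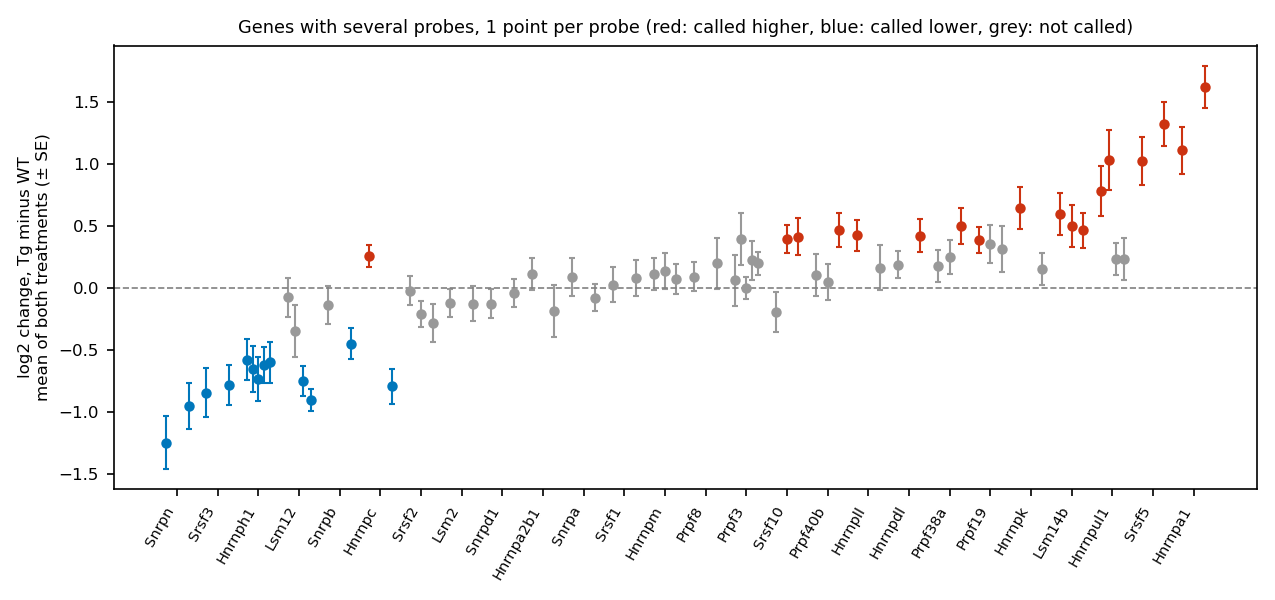
Averaged genotype difference (log2, vertical axis, with SE) of every probe of the 26 genes that have several members, ordered by gene mean. All probes of Hnrnpa1 and Srsf5 lie above 0 and all probes of Snrpn, Srsf3 and Hnrnph1 below it, and Hnrnpc has one probe on each side of 0.

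Splicing genes outside the chosen stems, from lists made with earlier results of these data known, were counted in the same fit. Of 156 probes for 96 genes, 54 were called higher and 15 lower in the averaged comparison (median 0.151), beside 17.9% and 14.3% of all probes. Under vehicle 4 were higher and 3 lower, beside 2.36% and 2.92% of all probes. Under 4b the counts were 49 and 9, beside 15.6% and 11.8%. Median scaling gave 73 higher and 8 lower in the averaged comparison, where 3666 of all 13706 probes were higher and 1246 lower. Without the 6 arrays of higher lymphocyte level, which leaves 1 transgenic 4b animal, most calls were lost, in these lists as over all probes. The median of the lists was then 0.149 in the averaged comparison and 0.259 under 4b. Core spliceosome proteins and helicases gave 25 higher and 4 lower of 54. Ctnnbl1, a partner of the Prpf19 complex, rose by 1.29 ± 0.19, from 8.43 to 9.61 in wild-type and from 9.78 to 10.80 in transgenic animals with no overlap. Cwc22, which loads the exon junction complex, rose on 3 probes, by 1.20 ± 0.15 on ILMN_2895293, and Eftud2, the GTPase of U5, on 3 probes by 0.50 to 0.74. Sart3, which recycles the U4/U6 snRNP, rose by 0.66 ± 0.10.

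Kinases that phosphorylate SR proteins gave 8 higher and 1 lower of 11 probes. The counts of this and the following lists stand beside 17.9% of all probes called higher and 14.3% lower. The lists are small, and none was tested against those shares. Clk2 rose on 2 of 3 probes, by 0.58 and 0.60, and Clk4 on 3 probes by 0.53 to 0.60, while the muscle-enriched Srpk3 stood at -0.55 ± 0.20 (adjusted p = 0.0426), the average of 0.18 under vehicle and -1.29 under 4b. Exon junction and SR-related proteins gave 9 higher and 3 lower of 21, among them Son at 0.70 ± 0.10, Sugp1 at 0.81 ± 0.12 and Rsrc1 at -0.83 ± 0.12. In a list of FET, DBHS and TDP-43 proteins that also holds Matr3, a gene outside these families, 4 of 9 probes rose and none fell. Sfpq rose by 1.12 ± 0.16 and Matr3 on 2 probes by 1.08 ± 0.15 and 0.44 ± 0.16. Tardbp, the gene of TDP-43, rose on 1 of 4 probes by 0.72 ± 0.20, its other probes standing at 0.08, -0.12 and 0.20. Taf15, at 0.38, and Pspc1, at -0.04, were not called. Other regulators of alternative splicing gave 4 higher and 2 lower of 36. The higher ones were Tial1 at 0.71 ± 0.19, Khdrbs1 on 2 probes at 0.43 and 0.46 and a probe of Rbm5 at 0.32. The lower ones were Tia1 at -0.65 ± 0.18 and Mbnl1, the muscleblind gene, at -0.35 ± 0.08 on its called probe. The other Mbnl1 probe stood at -0.0045. The SMN complex, which loads Sm rings on RNA, gave 2 higher and 4 lower of 19, with Smn1 up by 0.40 ± 0.09 and both Gemin7 and Wdr77 down on 2 probes each. Of 6 Snrnp probes, Snrnp200 and Snrnp70 rose by 0.52 and 0.46 and 1 probe of Snrnp35 fell by 0.72 on the log2 scale.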

How the data were processed

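Gene expression was measured in 16 muscles on Illumina bead arrays. The deposited non-normalized table holds 1 probe intensity on a linear scale per probe and array, not normalized per the file headers, and a detection p-value beside each, as deposited. A second table of the authors holds log2 values of the same arrays, which kept each array's order of probes and had columns of the same distribution, and it served as an alternative. How the detection p-values and the log2 values were computed is not stated in the labels or headers. Bead counts were not used, so the number of arrays limits the precision.

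Here intensities were background-corrected by normexp with background taken from the detection p-values, given an offset of 16, quantile-normalized and put on the log2 scale. Probes with a detection p under 0.05 on at least 3 arrays (13706) entered a limma fit (version 3.58.1, R 4.3.3) with the 4 group means, 16 arrays, 12 residual degrees of freedom and two-sided moderated tests, adjusted by Benjamini-Hochberg over all 13706. The design had no batch information and no pairing. Whether animals were handled together is not known, and p-values measure the spread between these animals. The fit was tested on simulated data.

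Symbols came from the platform annotation: 23978 probes had 1 symbol and 1719 none. In each comparison called members were named up to the 10 largest rises and falls, or, with under 4 calls, the 3 of smallest p in each direction. Members and gene lists were chosen with earlier results of these data known, so shares called are given beside those of all probes and no list of splicing genes was tested. Of the 7 marker lists, the level was compared between genotypes by exact permutation. Marker levels are means over a list of each gene's log2 value minus its mean over arrays, and promoter letters are from RefSeq (GRCm38.p6). Alternatives changed the offset, scaling, filter, probe choice, variance model, covariates and arrays. Probe sequences were not analysed here.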

Additional observations from a re-analysis of the deposited data

Results flagged for a closer look

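In 28 named probes, each group of 4 or 5 animals was searched for an animal far from the others, measured by its gap to the nearest one relative to the group's range, and 6 of 84 groups held one, where chance alone gives about 1 in 20. Hnrnpl in wild-type 4b animal 3 was at 9.552, with the others between 8.982 and 9.108. Srsf3 probe ILMN_2733399 was at 8.599 in the same animal, with the others between 8.198 and 8.287. Hnrnpf in transgenic vehicle animal 1 was at 8.921, with the others between 7.912 and 7.991, and Srsf3 in that animal was at 7.328, with the others between 8.149 and 8.211. Prpf18, a factor of the last catalytic step, was at 10.97 in wild-type vehicle animal 4, with the others between 11.25 and 11.31. In transgenic vehicle animal 4 it was at 11.04, with the others between 11.21 and 11.23. Both Prpf18 animals are among the 6 with lymphocyte marker levels above the average array, and both also had adipocyte marker levels above it. The part of either cell type in these values was not tested.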

How the results depend on the processing

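Each comparison was repeated under up to 31 alternatives, and the groups of 3 to 5 animals limit all of them. The 45 called members of the averaged genotype comparison became 29 of 59 with 1 probe per gene (33.2% of all probes), 12 without the 6 arrays of lymphocyte level above the average (10.7%, added after seeing the data), and 33 to 45 when single animals were left out. Under 4b the 32 called members became 21 with 1 probe per gene (28.3% of all), 53 with array weights (45.4%), 0 without the 6 arrays (limma, 1 transgenic 4b animal left) and 19 to 34 without single animals, lowest without transgenic 4b animal 1 or 2. Under vehicle the 5 became 3 with 1 probe per gene (5.3% of all), 8 with median scaling (6 higher, 2 lower), 2 with only the arrays of both groups (1.18%), 11 with the percentage of probes detected as a covariate (9.92%), 7 without the 6 arrays (2 higher, 5 lower, 5.61%) and 4 to 7 without single animals. Median scaling called 32 higher and 8 lower under 4b, 80% higher in place of 56.2% (all probes 74.9% in place of 57%), with all-probe medians of 0.122 under vehicle and 0.126 under 4b. For 4b in transgenic muscle the 0 calls became 17 with array weights and 0 to 6 without single animals, and for the interaction 2 with array weights and 0 without any single animal, as for 4b in wild type. With array weights 2277 of all probes were called for 4b in transgenic muscle and 179 for the interaction. Snrpd3 turned to 0.0479 (4b in transgenic) and 0.103 (interaction) without the 6 arrays, and the cause was not tested. No paired analysis was possible because the labels give each animal its own number.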
